A study of Mus musculus with 3 samples.

Results

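The messenger RNAs of 75 mitochondrial ribosomal protein genes were measured in mouse muscle at the end of 14 days. The mice had swum or not, and some of those that swam had eaten Chlorella, a green alga of single cells. The genes were chosen by name alone, as all non-control probes whose annotated gene name was Mrpl or Mrps followed by a number and, in some, letters. This gave 125 probes of 41169 on the array and 75 genes of 27665. The naming rule used no measured value, though the members were chosen with earlier results of these data known. The Chlorella swimming group ate food with 0.5% Chlorella powder and swam, the swimming group ate normal food and swam, and the nonswimming group ate normal food and did not swim. All mice were 6-week-old males, and their strain and the muscle sampled are not given in the sources used here. RNA of the 10 mice of a group was pooled, so each group was 1 sample on 1 single-colour Agilent array, and differences between mice within a group were not measured. Without replicates no test between groups could be made. Each difference below is a description of these 3 pools and has no replicate check.

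Mitochondria carry their own ribosome, which translates the few messenger RNAs of the mitochondrial genome, all for subunits of the respiratory chain and ATP synthase. Its RNAs come from mitochondrial DNA, while all of its proteins are encoded in the nucleus, made on cytosolic ribosomes and imported. The small subunit reads the messenger RNA and the large subunit joins the amino acids. Some of the proteins have homologues in bacterial ribosomes, and others were added in mitochondria. In muscle, whose contraction draws on respiration, endurance exercise is known to increase mitochondrial mass.

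A scaled signal below is the scanner's processed signal divided by the 75th percentile of that array, which was 237.8 intensity units for Chlorella swimming mice, 295.0 for swimming mice and 285.9 for nonswimming mice. A log2 ratio is the difference of 2 log2 scaled signals, and a gene is represented by its brightest probe. The scanner software gave an error of 0.20 for the log2 ratio of a bright probe. Probes spotted repeatedly on each array had an SD between spots that amounts to 0.086 for a log2 ratio. Neither error holds differences between mice. Of the 125 probes, 116 were well above background on all 3 arrays and the other 9 on none, and every one of the 75 genes had a measured probe on every array. No probe was saturated. The signals of the brightest probes lay between 228.9 and 32854 intensity units over the 3 arrays, far from the lowest signals called well above background, which were 6.26, 5.78 and 6.45 on the Chlorella swimming, swimming and nonswimming arrays.

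The tissue label held, since all 10 skeletal muscle markers were measured on every array, with summed scaled signals of 6204 in Chlorella swimming, 4828 in swimming and 5591 in nonswimming mice. Markers of other cells differed far more. The 8 neutrophil markers summed to 3.44 in Chlorella swimming, 273.7 in swimming and 16.07 in nonswimming mice, and Elane, the neutrophil elastase, was not well above background in Chlorella swimming mice. The 8 adipocyte markers summed to 540.8, 793.2 and 456 in the same order, and the 6 markers of dividing cells to 1.293, 9.963 and 1.439. The 6 macrophage markers summed to 43.89, 114.7 and 79.65, mostly from Lyz2 with 39.9, 109 and 73.7. The macrophage list had a median log2 ratio of 0.04 in swimming minus nonswimming, with none past 1.5-fold, and -0.8 in Chlorella swimming minus swimming. The 7 brown fat markers summed to 324.5, 305.4 and 200.3, mostly from Cox8b, which muscle also expresses. Ucp1, the uncoupling protein that defines brown fat, had 2.51, 16.2 and 0.851 and Cidea 24.9, 48.7 and 6.99. Both were highest in swimming mice, as was the dim Elovl3 with 0.0356, 0.0756 and 0.0426. Cpt1b (43.3, 31.5 and 39.9), Ppara (1.35, 1.1 and 1.33) and the dim Prdm16 (0.0481, 0.0427 and 0.0444) were lowest in swimming mice. The 6 erythroid markers summed to 44.34 in Chlorella swimming, 161.4 in swimming and 56.77 in nonswimming mice, mostly from Hba-a1 with 42.4, 147 and 53.5. The 6 B cell markers summed to 0.3405, 5.53 and 0.5131 in the same order. Of the erythroid markers, 3 were not well above background on the Chlorella swimming array and 2 on the nonswimming array, and of the B cell markers 3 and 1 were not. In pooled bulk tissue, fewer cells of a type and less RNA per cell cannot be told apart, and the part of cell composition in the ratios below was not tested.

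The mitochondrial ribosomal protein genes hardly differed between the 3 pools, with the exception of Mrpl9. In 74 of the 75 genes (98.7%) all 3 ratios stayed within 1.5-fold. The same held for 76.5% of the 15265 genes measured on all arrays and for 87.1% of the 8036 genes whose signal was at or above that of the dimmest member. Mrpl9 was the single exception, and it was lower on both swimming arrays than on the nonswimming array.

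Chlorella in the food of swimming mice went with no member at least 1.5-fold higher and none at least 1.5-fold lower, beside 5.87% of 15506 measured genes that were higher and 9.16% that were lower by that much. Of the genes at or above the dimmest member, 3.71% were higher and 3.71% lower. The median log2 ratio of Chlorella swimming minus swimming was 0.12 over the 75 members, with values from -0.35 to 0.34, and 0.08 over all measured genes. The members lay close together. Their interquartile range was 0.12, against 0.42 over all measured genes and 0.32 over the genes at or above the dimmest member, and the SD between members was 0.12 beside a spot-to-spot SD of 0.086. Of the 75 ratios, 65 (86.7%) were above 0, beside 59.9% of all genes and 67% of those at or above the dimmest member. That count rests on the scaling: the median was 0.03 after quantile normalization, 0.00 after cyclic loess and 0.26 after median centring. Measured against all genes, the members' median differed by -0.07 to 0.05 under the settings tried.

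The nuclear genes of the respiratory chain, whose mitochondrial partners this ribosome makes, had a median of 0.28 in the same comparison over 81 measured genes of 84, and 75 of them were above 0. The 76 cytosolic ribosomal protein genes had a median of 0.02. The members' median thus lay between those of these families. The ratios of the muscle markers were higher still, with a median of 0.32 and all 10 above 0. The family medians were computed under the reported scaling alone, so this order was not checked under the alternatives. A narrow spread was not particular to the members. The interquartile range was 0.12 over the respiratory chain genes and 0.18 over the cytosolic ribosomal protein genes, and 100% and 98.7% of them stayed within 1.5-fold.

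**Figure D1:**
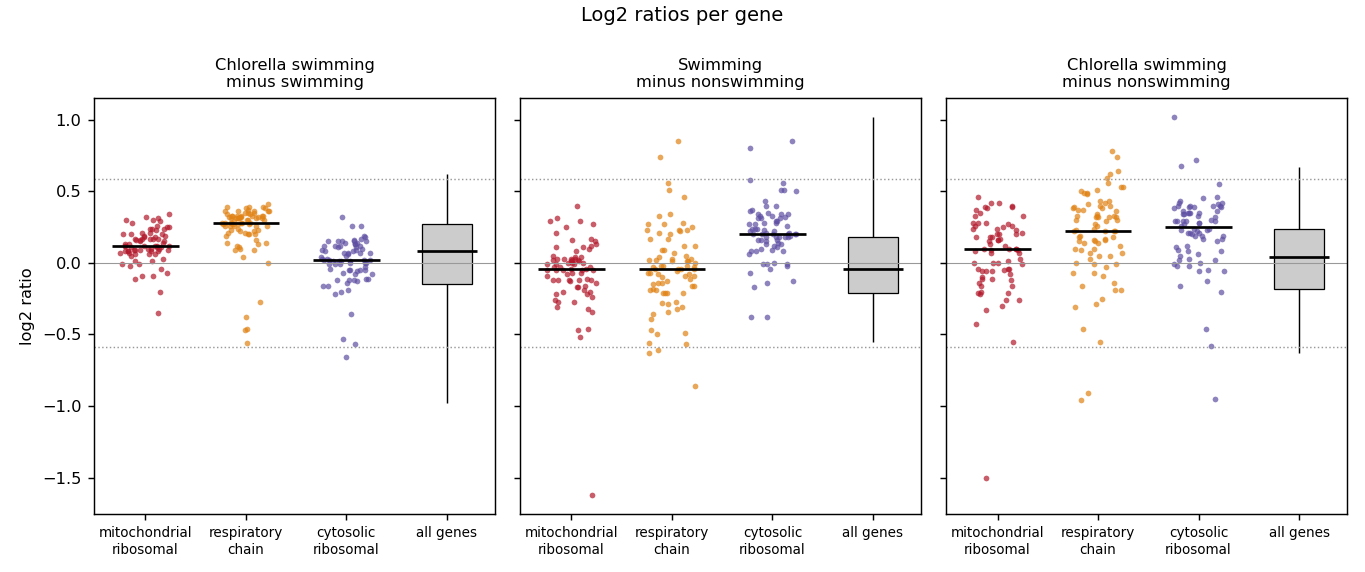
Log2 ratios per gene in the 3 comparisons, for 75 mitochondrial ribosomal protein genes, 81 nuclear respiratory chain genes and 76 cytosolic ribosomal protein genes (points, with the median as a black line). The grey box spans the quartiles of all measured genes with their median, its whiskers reach the 5th and 95th percentiles, and dotted lines mark 1.5-fold. The red points stay within 1.5-fold except for Mrpl9, at -1.62 and -1.50.

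Swimming on normal food, set against not swimming, went with 0 members at least 1.5-fold higher, beside 9.32% of 15656 measured genes, and with 1 member, Mrpl9, at least 1.5-fold lower, beside 4.4%. Of the genes at or above the dimmest member, 3.71% were higher and 2.63% lower by that much. Mrpl9 was also past 2-fold, as were 1.07% of all genes. After median centring 4 members were at least 1.5-fold lower, Mrpl9 and Mrps7, Mrps26 and Mrpl44 with -0.67, -0.62 and -0.61. The median of swimming minus nonswimming was -0.04 over the members and -0.04 over all genes. Of the 75 ratios, 45 (60%) were below 0, beside 55.1% of all genes and 61.2% of those at or above the dimmest member. The interquartile range of the members was 0.19, against 0.38 over all measured genes, 0.31 over the respiratory chain genes and 0.20 over the cytosolic ribosomal protein genes. Within 1.5-fold were 98.7% of the members, 93.8% of the respiratory chain genes and 97.4% of the cytosolic ribosomal protein genes. The respiratory chain genes had the same median, -0.04, whereas the cytosolic ribosomal protein genes had a median of 0.20, with 65 of 76 above 0. The quartiles of the cytosolic genes were 0.12 and 0.32 and those of the members -0.15 and 0.04, so the middle ranges did not overlap, and no test of that difference was possible.

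Chlorella swimming mice set against nonswimming mice had 0 members at least 1.5-fold higher, beside 6.63% of 15332 measured genes, and again Mrpl9 alone at least 1.5-fold lower, beside 5.76%, and past 2-fold, beside 1.48%. Of the genes at or above the dimmest member, 3.76% were at least 1.5-fold higher and 2.94% lower. The median was 0.10 over the members, 0.04 over all genes, 0.22 over the respiratory chain genes and 0.25 over the cytosolic ribosomal protein genes. Within 1.5-fold were 98.7% of the members, 91.4% of the respiratory chain genes and 94.7% of the cytosolic ribosomal protein genes. The 3 comparisons share arrays, so their ratios are not independent of each other.

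Mrpl9 encodes a large subunit protein with a bacterial homologue. Its scaled signal was 0.993 in Chlorella swimming mice, 0.911 in swimming mice and 2.81 in nonswimming mice. The processed signals behind these were 236.1, 268.7 and 802.4 intensity units, and the unprocessed mean spot intensities were 286.7, 319.9 and 866.7 over a local background of 45, 44.5 and 45.5. The nonswimming array was thus high, and both swimming arrays were low and close to each other. The log2 ratio of swimming minus nonswimming was -1.62 with a scanner error of 0.20, 3.08-fold lower, and that of Chlorella swimming minus nonswimming was -1.50, 2.83-fold lower. Chlorella swimming minus swimming gave 0.12. Over the processing settings the first ratio ranged from -1.78 to -1.45 and the second from -1.52 to -1.36. Of the 15265 genes measured on all arrays, 30 (0.197%) had a swimming minus nonswimming ratio as low as this or lower.

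The value rests on 1 probe, the only one for Mrpl9, placed by the scanner files at chr3:94320618-94320677 (their build is not stated in the files). Protein-coding neighbours of Mrpl9 in the RefSeq table were not as low. Tdrkh, which encodes a Tudor and KH domain protein, had 0.17 in swimming minus nonswimming, Riiad1 0.25 and Snx27, a sorting nexin, -0.61, while Lingo4 and Oaz3 were not well above background on any array and Celf3 was so on 1. Keratinocyte markers were low on the same arrays as Mrpl9. The 6 of them summed to a scaled signal of 2.139 in Chlorella swimming, 1.88 in swimming and 7.911 in nonswimming mice, and the 5 measured on both arrays had a median swimming minus nonswimming ratio of -4.44. Krt15 and Dmkn were not well above background on the Chlorella swimming array, nor Krt14 on the swimming array. Their part in the Mrpl9 ratio was not tested.

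**Figure D2:**
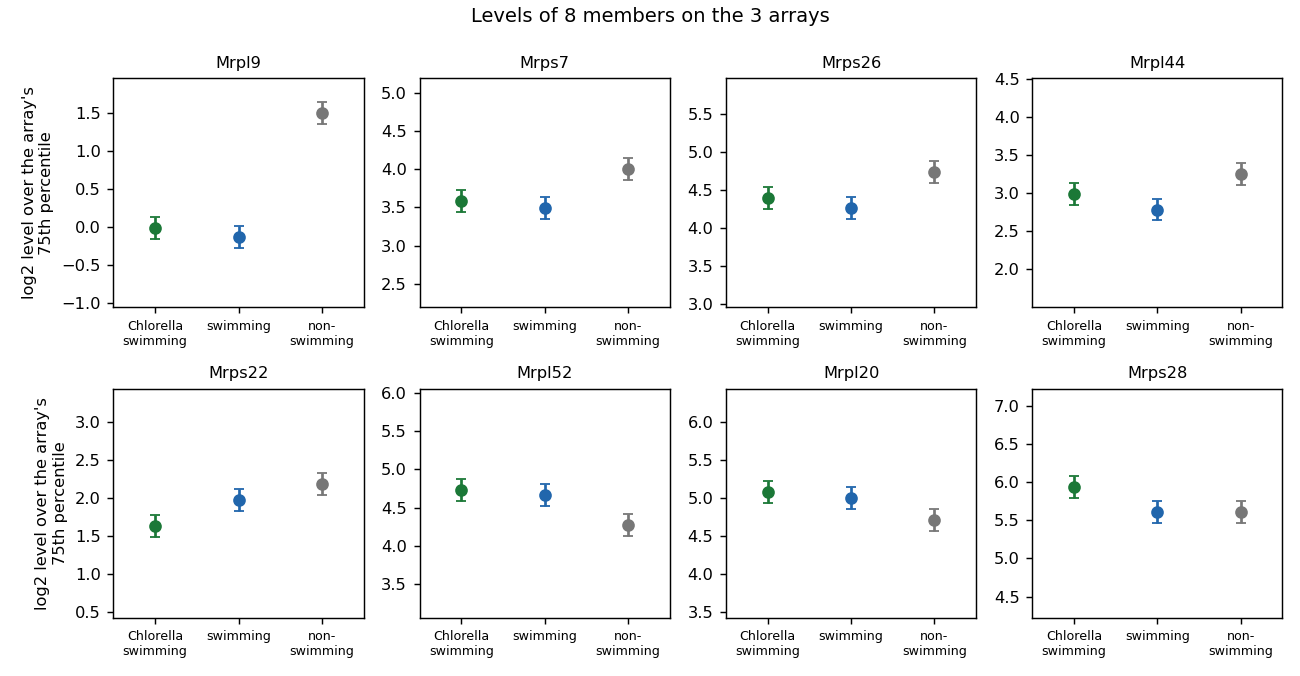
Log2 scaled signal (log2 of the signal over the array's 75th percentile) of 8 members on the Chlorella swimming, swimming and nonswimming arrays, 1 point per array, with the scanner error as bars. Every panel spans 3 log2 units; Mrpl9 stands apart with 2.81 times the 75th percentile on the nonswimming array, against 0.993 and 0.911 on the others.

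Among the other members, the small subunit held the lowest ratios of swimming minus nonswimming. Mrps7, a homologue of a bacterial protein of the head of the small subunit, had scaled signals of 12.0 in Chlorella swimming, 11.2 in swimming and 16.1 in nonswimming mice, and a ratio of -0.52 for swimming minus nonswimming. Mrps26, a protein added in mitochondria, had scaled signals of 21.1, 19.2 and 26.6 on the same arrays and a ratio of -0.47. For both genes the nonswimming array was the high one, as for Mrpl9, but by less than 1.5-fold. A second probe gave -0.24 for Mrps7 and -0.44 for Mrps26. Mrps5, whose bacterial homologue lies at the entry of the messenger RNA, had scaled signals of 9.27 in Chlorella swimming, 8.77 in swimming and 11.1 in nonswimming mice. Its 4 probes did not give a single answer: they ranged from -0.59 to 0.32 in swimming minus nonswimming and from -0.41 to 0.72 in Chlorella swimming minus nonswimming. The positive values came from a probe designed on a clone sequence with processed signals of only 16.34, 15.3 and 11.89 intensity units, and the 3 probes on the RefSeq transcript all lay at or below -0.34 in swimming minus nonswimming. In no other member did probes of opposite sign each lie farther from 0 than their own scanner error. Several others did have probes of opposite sign, among them Mrps18b and Mrpl44, described below.

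At the other end of the small subunit, Mrps21 had scaled signals of 9.56 in Chlorella swimming, 9.05 in swimming and 7.28 in nonswimming mice, a ratio of 0.31 in swimming minus nonswimming. Mrps18c, 1 of 3 mammalian relatives of a single bacterial protein, had 9.37, 8.55 and 7.0, a ratio of 0.29, and its second probe gave 0.08. Mrps16, mutated in a human disorder of mitochondrial translation, had a ratio of 0.25. In all 3 the nonswimming array was the lowest. Mrps18a and Mrps18b, the relatives of Mrps18c, had -0.32 and -0.19. A dim clone probe for Mrps18b, with 12.85, 11.64 and 9.172 intensity units on the Chlorella swimming, swimming and nonswimming arrays, gave 0.30, and in Chlorella swimming minus nonswimming 0.75 against -0.20 from the brightest probe. The protein of Mrps18a sits in the large subunit despite its name, as does that of Mrps30, which had -0.12.

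Mrps22, a protein added in mitochondria and mutated in a human disorder of mitochondrial translation, was the member with the lowest ratio of Chlorella swimming minus swimming. Its scaled signals were 3.09 in Chlorella swimming, 3.93 in swimming and 4.53 in nonswimming mice, so the Chlorella swimming array was the low one. The ratios were -0.35 against swimming and -0.55 against nonswimming mice, and over the processing settings the second lay between -0.58 and -0.53. It was measured by 1 probe. Mrps35 had -0.20 in Chlorella swimming minus swimming. Mrps28, related to a bacterial protein that binds messenger RNA, stood highest in that comparison, at 0.34, with scaled signals of 61.5 in Chlorella swimming, 48.7 in swimming and 49.0 in nonswimming mice. Mrps14 and Mrps21 both had 0.39 in Chlorella swimming minus nonswimming.

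In the large subunit Mrpl44, which carries a ribonuclease III-like fold, had scaled signals of 7.92 in Chlorella swimming, 6.9 in swimming and 9.49 in nonswimming mice. Its ratio of swimming minus nonswimming was -0.46, and its other probes gave -0.32 and -0.29. The 3 probes split in Chlorella swimming minus swimming, with 0.20, -0.16 and -0.26, so the lower value on the swimming than on the nonswimming array was common to all 3 and the place of the Chlorella swimming array was not. Mrpl45, which lies at the exit of the tunnel for the growing chain, had scaled signals of 18.9, 16.1 and 19.9 and a ratio of -0.31, with -0.29 from a second probe. Mrpl38 and Mrpl2 both had -0.27, and Mrpl3, whose human gene is mutated in a cardiomyopathy, had -0.26. Mrpl3 was also low in Chlorella swimming minus nonswimming, at -0.30.

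The highest large subunit member was Mrpl52, with scaled signals of 26.5 in Chlorella swimming, 25.4 in swimming and 19.3 in nonswimming mice. Its ratio was 0.40 in swimming minus nonswimming and 0.46 in Chlorella swimming minus nonswimming. A dim clone probe for the gene gave 0.19 and -0.26, with scanner errors of 0.30 and 0.36. Mrpl20, a homologue of an early-binding bacterial protein, had 33.9, 31.9 and 26.1, a ratio of 0.29, and Mrpl32, which is processed by a mitochondrial protease before it joins the ribosome, had 6.86, 6.16 and 5.12, a ratio of 0.27. On all 3 genes the nonswimming array was the lowest. Mrpl33 had 0.40 in Chlorella swimming minus nonswimming. In Chlorella swimming minus swimming the highest were Mrpl16 with 0.32, Mrpl47 with 0.31 and Mrpl51 and Mrpl14 with 0.30, and the lowest were Mrpl30 with -0.11 and Mrpl10 and Mrpl22 with -0.09.

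**Figure D3:**
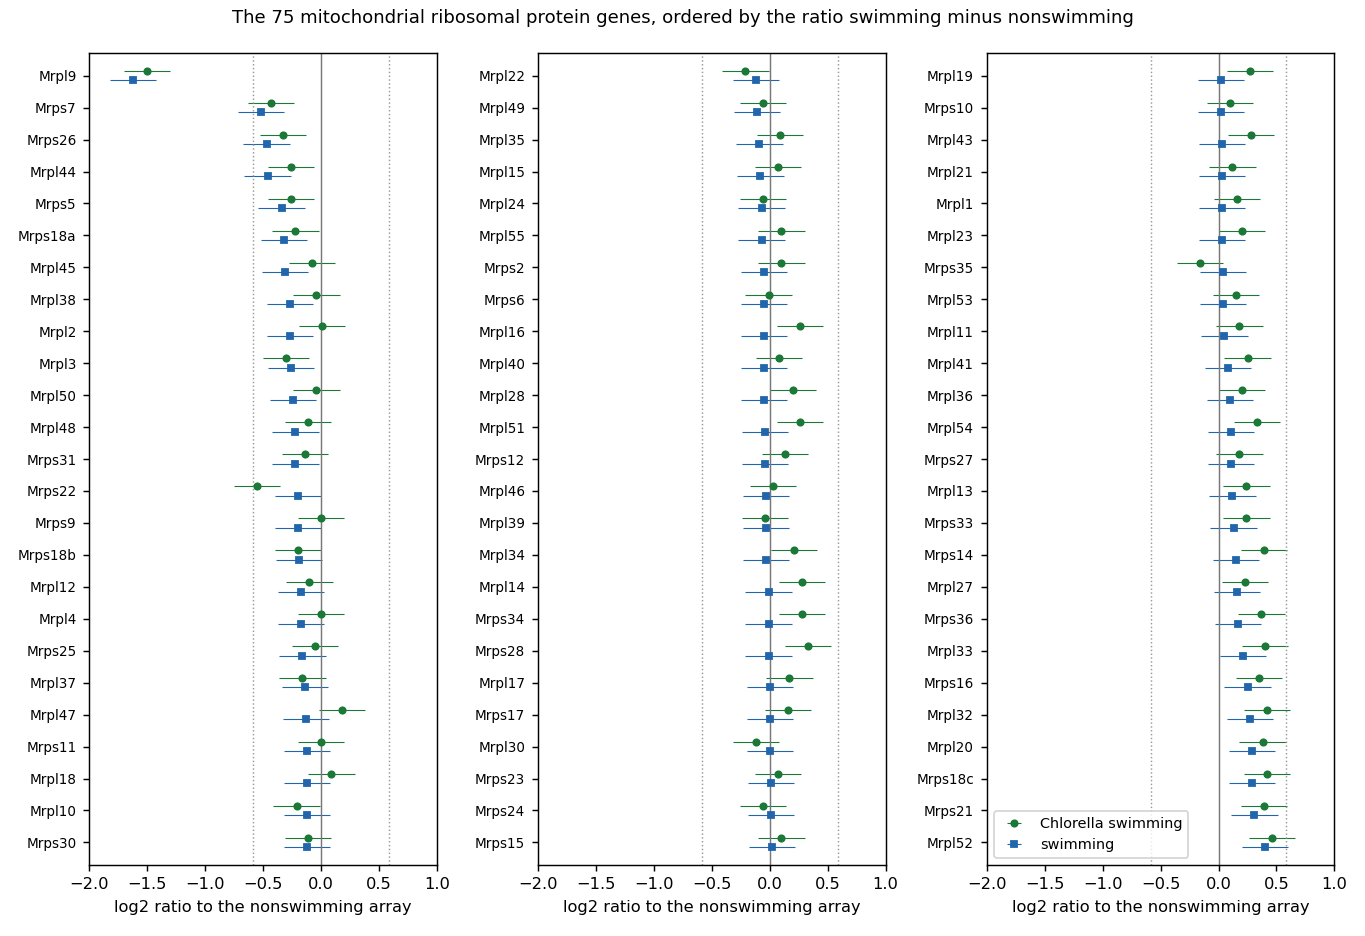
Log2 ratio of each of the 75 members to the nonswimming array, for the Chlorella swimming array (green circles) and the swimming array (blue squares), with scanner errors as bars, ordered by the swimming ratio. Dotted lines mark 1.5-fold and the grey line the nonswimming array; Mrpl9 is the only gene whose points lie past a dotted line, and the others run from Mrps7 at -0.52 to Mrpl52 at 0.40 for swimming, and from Mrps22 at -0.55 to Mrpl52 at 0.46 for Chlorella swimming.

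By subunit the members differed little. The 26 small subunit genes had medians of 0.10 in Chlorella swimming minus swimming and -0.01 in swimming minus nonswimming, and the 48 large subunit genes 0.14 and -0.05. Chlorella swimming minus nonswimming split by origin more than by subunit. Its median was 0.17 over the 30 large subunit genes with bacterial homologues and 0.10 over the 16 such small subunit genes, against -0.04 over the 18 large and -0.09 over the 10 small subunit genes added in mitochondria. Each of these groups ranged over more than this gap, and the difference has no test here. Mrps18a and Mrps18b were counted with the genes added in mitochondria, although both are relatives of a bacterial protein. They had -0.22 and -0.20 in Chlorella swimming minus nonswimming, and medians without them were not computed. Mrps36 was left out of both subunits, since its protein is now placed in the 2-oxoglutarate dehydrogenase complex. It had 0.20 in Chlorella swimming minus swimming and 0.17 in swimming minus nonswimming.

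In the whole family, 45 members had their highest scaled signal in Chlorella swimming mice, 2 in swimming mice and 28 in nonswimming mice. The shares over all 15265 genes were 42.3%, 25.2% and 32.4%. These counts rest on the scaling. Quantile normalization gave 30, 18 and 27 members on the Chlorella swimming, swimming and nonswimming arrays, against 38%, 26.3% and 35.7% of all genes, and cyclic loess gave 28, 22 and 25, against 34%, 34.4% and 31.6%. Median centring gave 44, 0 and 31, against 45.4%, 14.5% and 40.1%.

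**Figure D4:**
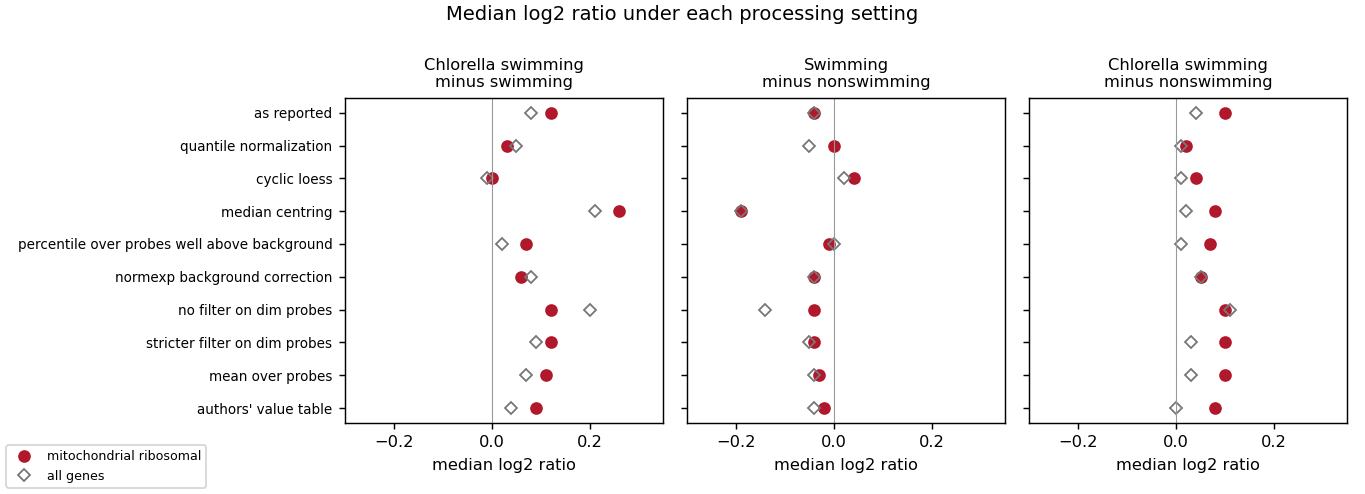
Median log2 ratio of the members (red circles) and of all measured genes (open diamonds) in each comparison under the reported processing and 9 alternatives. The members' median runs from 0.00 to 0.26 in Chlorella swimming minus swimming, from -0.19 to 0.04 in swimming minus nonswimming and from 0.02 to 0.10 in Chlorella swimming minus nonswimming. Without a filter on dim probes the all-gene median is 0.20 in the first of these while the members stay at 0.12.

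A second probe gave a check on small ratios within an array. In 24 members 2 probes had at least 50 intensity units on every array. Across these genes the ratio of the brightest probe and that of the second had a Pearson r of 0.83 in swimming minus nonswimming and 0.77 in Chlorella swimming minus nonswimming, but 0.37 in Chlorella swimming minus swimming. These are descriptions across genes, and both probes share the RNA pools, the arrays and the scaling. The probes of a gene differed by a median of 0.05, 0.15 and 0.08 in these comparisons. The 2 probes had the same sign in 18, 22 and 17 of the 24 genes. In Chlorella swimming minus swimming the ratios themselves were small, with an SD of 0.08 between the 24 genes for the brightest probe, against 0.20 in swimming minus nonswimming. Over 3553 genes with 2 such probes on the array, r was 0.71, 0.62 and 0.79, and 2714, 2515 and 2814 genes had the same sign.

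**Figure D5:**
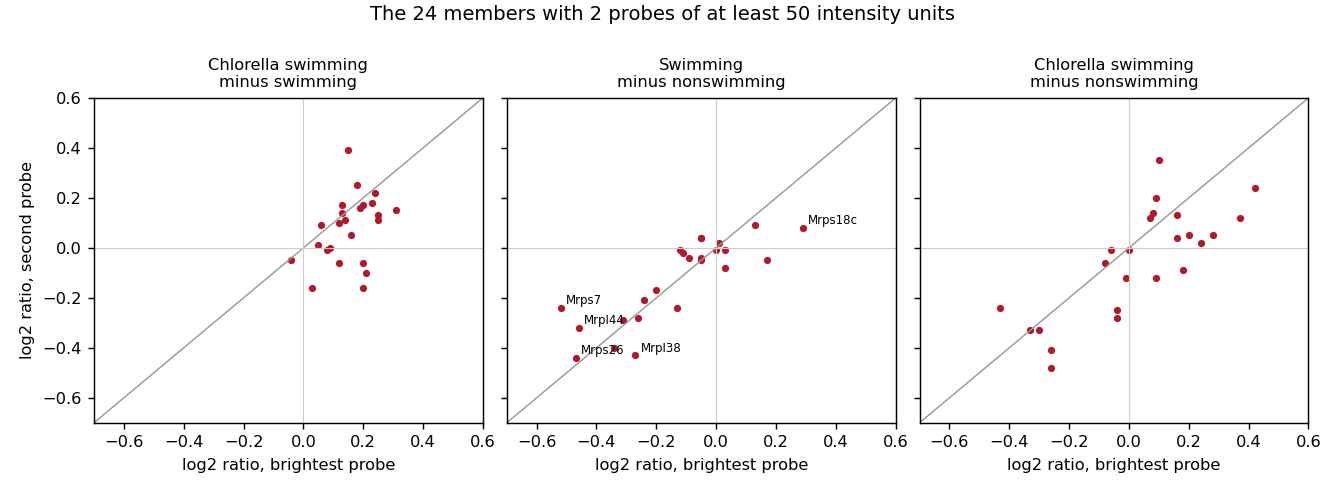
Log2 ratio of the second probe (vertical) against that of the brightest probe (horizontal) for 24 members in each comparison, with the line of equality in grey. In swimming minus nonswimming the probes of Mrps26 (-0.47 and -0.44) and Mrpl44 (-0.46 and -0.32) are both low, and the points of Chlorella swimming minus swimming form a cloud near 0.12.

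The 9 probes that stayed at background do not enter these values, since each of their genes had a brighter probe. They reached at most 7.97 intensity units, and 8 of them were designed on clone or EST sequences, out of 19 such probes for members. Of the 106 probes on RefSeq transcripts, 1 was at background, for Mrpl41.

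Genes that work with the mitochondrial ribosome were followed as lists. A list of 8 proteins of the same ribosome that carry other names in the files, such as Dap3 and Chchd1, had medians of 0.14 in Chlorella swimming minus swimming and 0.00 in swimming minus nonswimming, and none passed 1.5-fold. The highest was Mrpl57, with scaled signals of 47.0 in Chlorella swimming, 42.6 in swimming and 33.1 in nonswimming mice, ratios of 0.51 and 0.36 to the nonswimming array. Gadd45gip1 had -0.19 in swimming minus nonswimming, and in Chlorella swimming minus swimming Ptcd3 had 0.34 and Chchd1 0.28.

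The 14 mitochondrial translation factors had medians of 0.14 in Chlorella swimming minus swimming and -0.10 in swimming minus nonswimming, where 12 of 14 were below 0, beside 55.1% of all genes, and where median centring gave -0.25. Taco1, a translational activator of a cytochrome c oxidase subunit, was the only factor past 1.5-fold. Its scaled signals were 1.21 in Chlorella swimming, 0.794 in swimming and 0.759 in nonswimming mice, so that it was high with Chlorella, by 0.61 against swimming and 0.67 against nonswimming mice. Both ratios passed the 1.5-fold limit of 0.585 by less than the scanner error of 0.20. Of all measured genes, 5.87% and 6.63% were higher by at least 1.5-fold in these comparisons. The elongation factor Tufm had 0.36 in Chlorella swimming minus swimming. The factors Gfm2, which takes ribosomes apart, and Guf1 had -0.38 and -0.36 in swimming minus nonswimming.

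Of 23 genes for assembly of the ribosome and modification of its RNA, 22 were measured, and 18 of these were below 0 in swimming minus nonswimming, with a median of -0.17 and none past 1.5-fold. Beside this, all genes had a median of -0.04 and 55.1% below 0, and median centring gave the list -0.33 and all genes -0.19. The lowest were Mrm1 with -0.47 and Mrm3 with -0.43, both methyltransferases of the large ribosomal RNA. Malsu1, a factor that binds the large subunit, stood opposite, with 0.28 there and 0.45 in Chlorella swimming minus nonswimming, and Eral1, which binds the small ribosomal RNA, had 0.32 in Chlorella swimming minus swimming. Trmt61b was not well above background on any array. The 19 mitochondrial aminoacyl-tRNA synthetases, which charge transfer RNAs, had medians of 0.06 in Chlorella swimming minus swimming and -0.08 in swimming minus nonswimming, with 16 of 19 below 0 where swimming was set against nonswimming, beside 55.1% of all genes, and none past 1.5-fold. Median centring gave -0.23 there. Aars2 had 0.47 and Rars2 -0.35 in Chlorella swimming minus swimming, Kars, which also serves the cytosol, had -0.40 in swimming minus nonswimming, and Nars2 had -0.50 in Chlorella swimming minus nonswimming.

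The 15 genes for mitochondrial DNA upkeep and transcription had medians of 0.15 in Chlorella swimming minus swimming and -0.12 in swimming minus nonswimming. Mterf1a, a transcription termination factor, was the only gene past 1.5-fold. It had -0.63 with a scanner error of 0.22 in Chlorella swimming minus swimming, at low scaled signals of 0.107 and 0.165. In that comparison 9.16% of all measured genes were lower by at least 1.5-fold. Lrpprc, which stabilises mitochondrial messenger RNA, had 0.52 in that comparison, and Tfam, which packs mitochondrial DNA, had 0.49 in Chlorella swimming minus nonswimming, where the elongation factor Tefm had -0.56. Among 9 regulators of mitochondrial biogenesis 2 coactivators were at least 1.5-fold higher in Chlorella swimming minus swimming, beside 5.87% of all measured genes. Ppargc1b had scaled signals of 5.28 in Chlorella swimming, 3.07 in swimming and 3.52 in nonswimming mice, and Ppargc1a had 6.9, 4.56 and 5.6. For both the Chlorella swimming array was the high one, with ratios to the swimming array of 0.78 and 0.60. Ppargc1b was also past 1.5-fold against nonswimming mice, with 0.59, beside 6.63% of all measured genes. The values 0.60 and 0.59 passed the 1.5-fold limit of 0.585 by less than the scanner error of 0.20. In Chlorella swimming minus swimming the other scalings moved the median of all genes by -0.07 to 0.13, and these 2 genes were not followed under them. Factors known to bind promoters of mitochondrial genes had smaller ratios: Nrf1 had -0.11, Gabpa -0.07, Gabpb1 0.06, Myc 0.23, Yy1 0.24 and Esrra 0.43 in the same comparison.

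Promoters of the members were read from RefSeq sequences of build GRCm38.p6, which cover 250 bases before and 50 after the start and matched 66 of the 75 genes. Letters known as binding motifs were searched on both strands: CCGGAAG for GABP, GCGCATGCG for NRF1, which overlaps its own reverse complement, and AAGATGGCG for YY1. CCGGAAG was found in 24 of 66 member promoters (36.4%), against 9.93% of all 27025 promoters and 18.6% of those of genes measured on all 3 arrays. GCGCATGCG was found in 7 (10.6%), against 1.95% and 3.68%, and AAGATGGCG in 7 (10.6%), against 1.64% and 3.33%. A match describes the letters and shows no binding. Members with and without CCGGAAG had medians of 0.11 and 0.12 in Chlorella swimming minus swimming and 0.00 and -0.05 in swimming minus nonswimming. In Chlorella swimming minus nonswimming they had 0.16 and 0.02, with 24 genes against 42. Members with and without GCGCATGCG had -0.01 and 0.12 in Chlorella swimming minus swimming, -0.12 and -0.04 in swimming minus nonswimming, and -0.20 and 0.10 in Chlorella swimming minus nonswimming, with 7 genes, Mrpl9 among them, against 59. With and without AAGATGGCG the medians were 0.10 and 0.12 in the first comparison, -0.09 and -0.04 in the second and 0.00 and 0.10 in the third. These differences were not tested. The promoters of 3 members are printed: Mrpl9, the member farthest from 0, and Mrps26 and Mrpl52, which hold the same letters and had ratios of swimming minus nonswimming of opposite sign. Capitals mark matches, in Mrpl9 to NRF1 on both strands, in letters that overlap, from -28, and in the others to GABP, here on the opposite strand. The windows lie on the plus strand at chr3:94443086-94443385, chr2:130563507-130563806 and chr14:54426659-54426958.
Mrpl9: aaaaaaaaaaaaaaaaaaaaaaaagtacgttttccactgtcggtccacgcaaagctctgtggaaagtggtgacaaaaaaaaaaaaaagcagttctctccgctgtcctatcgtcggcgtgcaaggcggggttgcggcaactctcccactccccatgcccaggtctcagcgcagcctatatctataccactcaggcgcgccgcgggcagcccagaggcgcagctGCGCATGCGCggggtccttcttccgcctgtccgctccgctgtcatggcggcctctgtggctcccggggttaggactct
Mrps26: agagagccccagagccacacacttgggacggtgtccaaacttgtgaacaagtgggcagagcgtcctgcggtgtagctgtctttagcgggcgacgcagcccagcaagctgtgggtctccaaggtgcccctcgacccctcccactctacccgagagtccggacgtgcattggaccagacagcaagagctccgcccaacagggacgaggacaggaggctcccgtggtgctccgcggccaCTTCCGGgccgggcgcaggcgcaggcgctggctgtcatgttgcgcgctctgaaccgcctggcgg
Mrpl52: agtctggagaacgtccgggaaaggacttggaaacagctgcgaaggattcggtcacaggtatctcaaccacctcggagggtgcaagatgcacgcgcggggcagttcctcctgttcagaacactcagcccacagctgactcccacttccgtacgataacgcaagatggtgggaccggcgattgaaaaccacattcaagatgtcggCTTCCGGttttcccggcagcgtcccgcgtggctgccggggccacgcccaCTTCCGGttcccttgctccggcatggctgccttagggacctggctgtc
Mrps26 and Mrpl52 thus both held the GABP letters near their starts, 1 match at -14 and 2 in Mrpl52, while their ratios of swimming minus nonswimming were -0.47 and 0.40.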

How the data were processed

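Per the labels' protocols, the RNA of 10 mice made up a pool, Cy3 was the label, and each pool went on 1 array. The deposited scanner files hold intensity values (per the submitters' processing notes, from Agilent Feature Extraction 9.5). They give a processed signal, background-subtracted by the authors' software, its error, spot and background intensities and flags. The authors' deposited value table holds log2 values of 13683 spots. Set against the scanner values, its differences between arrays were log2 signal differences plus a constant, within 0.01, for 57%, 56.9% and 56.2% of spots (Chlorella swimming minus swimming, swimming minus nonswimming, Chlorella swimming minus nonswimming), with r of 0.82, 0.76 and 0.71 across probes. Its column medians were 0.010, -0.005 and 0.008 (Chlorella swimming, swimming, nonswimming). The scale and direction are therefore known and the centring is not, so it served as an alternative alone. Per the file headers, slide and scan were the same for the 3 arrays.

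Control spots and flagged outliers were left out and spots of a probe averaged. The processed signal was put on the log2 scale and the array's 75th percentile subtracted. A gene was named through its RefSeq accession, its symbol or an older symbol (GRCm38.p6 table) and represented by its brightest probe. Members kept the name by which they were chosen. Where nothing matched, the scanner file's own name was kept. This was so for 8457 of the 41169 probes, 0 of them probes of members, and such names count among the 27665 genes. A ratio needed a probe well above background on both arrays. Genes past 1.5-fold or 2-fold were counted beside the share of all measured genes, and no p-value was computed. The steps were tested on simulated data. Tools were Python 3.11.15, numpy 2.4.6, pandas 2.3.3, scipy 1.17.1, R 4.3.3 and limma 3.58.1.

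The members and lists were chosen with earlier results of these data known. Named were members past 1.5-fold, the 5 highest and 5 lowest per comparison, members at background or with probes of opposite sign beyond the scanner error, and from each list the genes past 1.5-fold and the 2 farthest from 0, of which the text gives those with the clearest values. Mrpl2, Mrpl38, Mrpl45, Mrps16, Mrps18a, Mrps18b, Mrps30 and Mrps36, which the rule does not name, were added after their values were seen. Mrpl47 was moved to the bacterial homologues and Mrpl42, which the files list under a clone name, to the proteins of other names after the lists were first written. The alternatives changed the scaling (median centring, cyclic loess, quantile normalization, a percentile of well measured probes only), the background (normexp, offset 50), the filter on dim probes (none, or a signal of at least 50) and the value of a gene (a mean of its probes). The authors' table was another. Setting the members beside genes at or above the dimmest member, leaving out Mrpl9 and the second probe were chosen after seeing the data. The genes at or above the dimmest member share a lower limit alone and were not matched to the members' brightness.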

Additional observations from a re-analysis of the deposited data

How the results depend on the processing

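No paired analysis was possible because each group was 1 array. The median over the members in Chlorella swimming minus swimming was 0.03 with quantile normalization, 0.00 with cyclic loess and 0.26 with median centring. In swimming minus nonswimming, median centring gave a median of -0.19 and 4 members at least 1.5-fold lower in place of 1. Median centring also moved the median of all genes, by 0.13 and -0.15 in these comparisons. Of 207 values of named members per comparison under the alternatives, 203, 207 and 204 moved by less than the scanner error (Chlorella swimming minus swimming, swimming minus nonswimming, Chlorella swimming minus nonswimming), and no result that passed 1.5-fold changed sign. Those that moved more were Mrpl44 and Mrpl52 in Chlorella swimming minus swimming, at -0.07 and -0.20 as means over probes and -0.13 and -0.22 in the authors' deposited table, and in Chlorella swimming minus nonswimming Mrps5, at -0.04, and Mrpl52, at 0.10 and 0.08. In the reported processing Mrpl9 was the only member past 1.5-fold. The scanner error of 0.20 was as large as many of the ratios, so a value that moved by less could still change sign. In Chlorella swimming minus swimming, Mrpl10 ran from -0.18 to 0.05, Mrpl22 from -0.18 to 0.04 and Mrpl30 from -0.25 to 0.02. The signal over background did not limit the members, which were all measured, while a single array per group limited every comparison.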

Other observations

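Members of the family often share a start region with another gene. In 23 of 66 members with a RefSeq promoter (34.8%) the 300-base window overlapped that of a gene on the opposite strand, against 11.9% of all genes and 17.8% of genes measured on all 3 arrays. Mrps11 and Mrpl46 are such a pair within the family, with -0.12 and -0.03 in swimming minus nonswimming. Mrps12 lies opposite Sars2, the mitochondrial seryl-tRNA synthetase, with -0.04 and -0.21, and Mrpl43 opposite Twnk, the helicase of mitochondrial DNA, with 0.03 and -0.18. Mrpl32 lies opposite Psma2, a proteasome subunit, with 0.27 and 0.16. In the same comparison Mrps7 had -0.52 and its partner Gga3 -0.17, Mrpl47 had -0.13 and Ndufb5, a subunit of complex I, -0.49, and Mrpl49 had -0.11 and Fau, which encodes a cytosolic ribosomal protein, 0.34.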
